A study of Mus musculus with 15 samples.

Results

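The kinases described here are the c-Jun N-terminal kinases (JNKs) and their close relatives in the mitogen-activated protein (MAP) kinase cascades: Mapk8, Mapk9, Map2k4, Map2k7, Map3k5, Map3k7, Mapk14 and Mapk3. They were chosen by gene symbol, and each was read from the probe set that the array's gene table gives to that symbol alone. Of the 8 genes 6 were measured, each by 1 probe set, among 19938 genes in all. Map2k7 and Mapk3 had no such probe set and were not analysed here.

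RNA from the livers of 15 C57BL/6 mice, 8 weeks old and male by their labels, was hybridized to Affymetrix arrays that cover whole transcripts, each mouse on an array of its own. Each of 5 groups held 3 mice. The WT group was NEMO f/f, that is, wild type with a NEMO gene (Ikbkg, which is X-linked) flanked by loxP sites and still intact. Jnk1 KO mice were constitutive Jnk1-/- and Jnk2 KO mice constitutive Jnk2-/-, so these genes were deleted in every cell type. NEMO/Jnk1 DKO (global Jnk1-/-/NEMOΔhepa) and NEMO/Jnk2 DKO (global Jnk2-/-/NEMOΔhepa) mice also lost NEMO through Alb-cre. Its albumin promoter is active in hepatocytes, so the NEMO deletion is aimed at these cells and not at every liver cell. No group analysed here lacked NEMO alone, so its loss was compared within Jnk1-null and within Jnk2-null mice. The values are log2 expression levels, in which a difference of 1 is a doubling, and a level cannot be set against that of another gene because each probe set has its own response.

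In a MAP kinase cascade a MAP3K phosphorylates a MAP2K, which phosphorylates a MAP kinase. Mapk8 encodes JNK1 and Mapk9 encodes JNK2, which phosphorylate c-Jun and other proteins under stress or inflammatory signals. Map2k4 (MKK4) activates JNK and can also activate p38, whose alpha form is encoded by Mapk14. Map3k5 (ASK1) is a MAP3K that responds to oxidative stress, and Map3k7 (TAK1) is a MAP3K downstream of cytokine receptors that activates both these cascades and the IkB kinase complex, of which NEMO is the regulatory subunit. In hepatocytes NEMO is needed for NF-kB activation, and mice that lack it there are known for hepatocyte death and chronic liver inflammation. All values below are RNA levels, and kinase activity was not measured.

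The promoters of both MAP3K genes are shown because Map3k5 was the member with the widest range of levels among those not deleted, while Map3k7 was among the steadiest and is the kinase that links these cascades to NEMO. Each runs 5′ to 3′ from 250 bases before to 50 bases after the RefSeq start site in GRCm38.p6, with motif matches in capitals. The Map3k5 window lies at chr10:19934276-19934575 and the Map3k7 window at chr4:31963857-31964156, both on the plus strand.
Map3k5: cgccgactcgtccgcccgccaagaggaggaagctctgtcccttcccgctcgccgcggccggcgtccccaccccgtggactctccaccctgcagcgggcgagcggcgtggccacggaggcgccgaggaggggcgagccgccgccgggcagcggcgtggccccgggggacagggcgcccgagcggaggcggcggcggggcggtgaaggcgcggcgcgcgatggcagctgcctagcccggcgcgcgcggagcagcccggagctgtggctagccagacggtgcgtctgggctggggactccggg
Map3k7: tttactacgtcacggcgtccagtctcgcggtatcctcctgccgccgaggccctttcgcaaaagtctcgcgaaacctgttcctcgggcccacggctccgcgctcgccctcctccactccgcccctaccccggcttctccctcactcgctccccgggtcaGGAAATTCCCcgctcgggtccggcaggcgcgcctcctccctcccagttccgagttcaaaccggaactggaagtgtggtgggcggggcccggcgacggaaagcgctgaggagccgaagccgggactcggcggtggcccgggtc
The AP-1, CRE and kappaB motifs were searched on both strands of such windows for all 6 measured members, 9 windows in all. AP-1 (TGANTCA), the site of Jun-containing dimers, lies in 7.81% of 32851 mouse promoters of this length, and CRE (TGACGTCA), the site of ATF and CREB proteins, in 1.79%. No window of a measured member held either. The NF-kB site (kappaB), which lies in 4.51% of the promoters, matched once, in capitals above, on the minus strand of the Map3k7 window 92 bases before the start site. A match is a stretch of letters and not a measured site, and the array values do not bear on its use.

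Some arrays stood apart from their labels, which touches the results below. The arrays labelled Jnk1 KO replicate 1 and Jnk2 KO replicate 3 read 10.12 and 9.70 for Ly6d and 8.66 and 8.21 for Mmp12. The 6 double knockouts lay between 7.88 and 10.48 for Ly6d and between 7.55 and 8.96 for Mmp12, and the 7 other arrays with intact NEMO at most at 5.34 and 4.88. The same 2 arrays read 6.75 and 6.24 for Ikbkg, where the other 7 lay between 7.03 and 7.41 and the double knockouts between 6.18 and 6.85. They are called the 2 doubted arrays. The counts of members that passed are given as labelled and without them, and other results in either setting or in both. Because these arrays were picked for likeness to the double knockouts, leaving them out tends by itself to widen the NEMO differences. Apart from this, 3 arrays labelled male (Jnk1 KO replicate 1 and NEMO/Jnk1 DKO replicates 1 and 2) had Xist between 8.68 and 9.16 and a mean of the Y-linked genes between 2.75 and 2.98, the pattern of a female. The 12 others had Y-linked means between 6.79 and 7.26 and Xist at most at 2.82. The hepatocyte genes Alb (13.04 to 13.21) and Hnf4a (9.70 to 10.41) were high on all 15 arrays. The labels give each mouse its own number, so the replicates are separate animals. Below, a gene passed where limma's adjusted p, by the Benjamini-Hochberg method over 19938 genes, was under 0.05, SE is the standard error of a log2 difference, and the range in brackets is its 95% confidence interval. In whole liver, fewer cells of a type and less RNA per cell cannot be told apart.

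Mapk9 (JNK2) followed the Jnk2 label on every array. WT arrays read 7.41, 7.65 and 7.42, those of Jnk1 KO 7.60, 7.61 and 7.43, and those of NEMO/Jnk1 DKO 7.48, 7.52 and 7.67. In the mice lacking Jnk2 it read 3.28, 2.88 and 2.60 in Jnk2 KO and 2.84, 2.39 and 2.76 in NEMO/Jnk2 DKO. The 9 arrays with intact Jnk2 (7.41 to 7.67) and the 6 without (2.39 to 3.28) were far apart, and both doubted arrays sat with their own Jnk genotype. Since Jnk2 is the deleted gene, these values check the labels. All 6 Jnk2-null arrays read below 3.69, under which 40% of all values on the arrays lie, and near the level of Xist on the 12 arrays without the female pattern (2.40 to 2.82). Such a level is only an upper limit, so the size of the difference is given as a bound against 3.69. WT was at least 13.9-fold higher than Jnk2 KO (limma adjusted p = 1.74e-09) and at least 13.9-fold higher than NEMO/Jnk2 DKO (adjusted p = 8.23e-10). At this level Mapk9 cannot be compared between the 2 Jnk2-null groups. Mapk9 was not called in the mice without Jnk1: Jnk1 KO less WT was 0.06 (-0.28 to 0.39) and NEMO/Jnk1 DKO less WT 0.07 (-0.27 to 0.40), so that neither interval reaches a doubling or halving of JNK2 message where JNK1 was deleted.

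Mapk8 (JNK1) read lower on all arrays of mice whose Jnk1 gene was deleted. It read 6.98, 7.02 and 7.03 in WT. Jnk1 KO read 6.06, 6.23 and 6.12, and NEMO/Jnk1 DKO read 5.97, 5.87 and 6.53. Between these lay Jnk2 KO with 6.85, 6.75 and 6.58, and NEMO/Jnk2 DKO with 6.90, 6.78 and 6.58. The 6 Jnk1-null arrays (5.87 to 6.53) did not overlap the 9 others (6.58 to 7.03), though the highest of the former, NEMO/Jnk1 DKO replicate 3, came close to them. By group mean the order was WT, then the 2 Jnk2-null groups, which did not differ beyond their spread, then the 2 Jnk1-null groups, which did not either. Jnk1 KO stood at 54.6% of the WT level of this probe set (44.0% to 67.8%) and NEMO/Jnk1 DKO at 54.2% (43.7% to 67.2%). Where this probe set lies along the gene, relative to the deleted part, is not given in the sources used here, so its level sets no limit on what the deletion removed.

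The test of this difference was borderline in the single comparisons. Jnk1 KO less WT was -0.87 (SE 0.14, limma adjusted p = 0.167) and did not pass although the groups did not overlap. NEMO/Jnk1 DKO less WT was -0.88 (SE 0.14, limma adjusted p = 0.0456) and -0.88 without the 2 doubted arrays (adjusted p = 0.00216). Its adjusted p lay between 0.00211 and 0.457 over 28 other settings and missed the threshold in 16 of them. Of the 3 NEMO/Jnk1 DKO arrays 2 had the female pattern. The difference was -0.48 without the female-pattern arrays (SE 0.15, limma adjusted p = 0.337), which leaves replicate 3 alone in that group, and -0.65 with sex as a term (adjusted p = 0.457), so neither passed. Over both backgrounds, all Jnk1-null less all Jnk2-null was -0.61 (SE 0.10, limma adjusted p = 0.0135), and -0.63 without the 2 doubted arrays (adjusted p = 0.0198). Sex pattern moved with this value: the 3 Jnk1-null arrays with the female pattern read 5.87 to 6.06, and the 3 others 6.12 to 6.53. Without the female-pattern arrays the difference was -0.39 (limma adjusted p = 0.16), and with sex as a term in the fit it was -0.43 (adjusted p = 0.107), both no longer called. All 6 arrays lacking Jnk2 (6.58 to 6.90) also lay below all 3 WT arrays for Mapk8. Neither difference passed, at -0.28 for Jnk2 KO less WT (-0.59 to 0.03, limma adjusted p = 0.461) and -0.26 for NEMO/Jnk2 DKO less WT (-0.57 to 0.06, adjusted p = 0.376). NEMO loss left Mapk8 at a difference of -0.01 on the Jnk1-null background (-0.32 to 0.30) and 0.02 on the Jnk2-null background (-0.29 to 0.34).

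**Figure D1:**
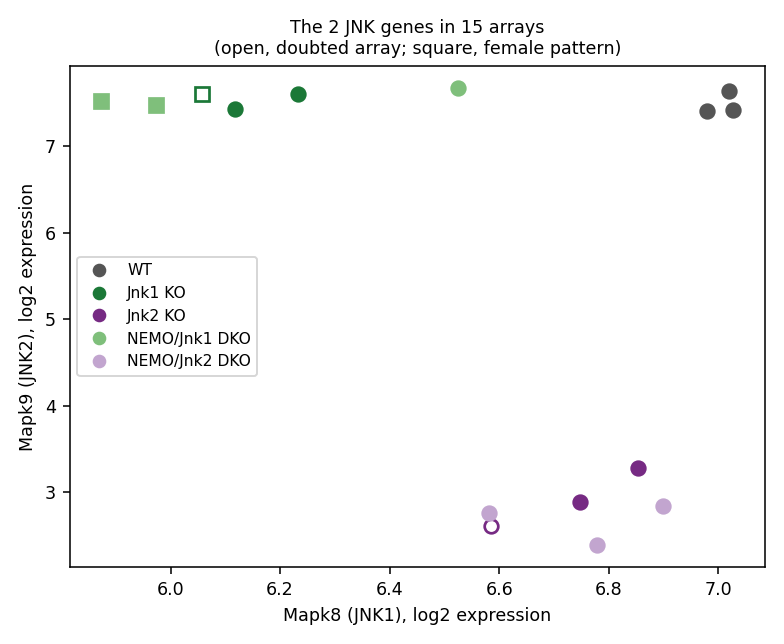
Log2 level of Mapk9 against that of Mapk8 on each of the 15 arrays, coloured by group, with open symbols for the 2 doubted arrays and squares for the 3 arrays with the female pattern. The 6 Jnk2-null arrays lie at 2.39 to 3.28 for Mapk9, far below the rest, while the 6 Jnk1-null arrays lie at 5.87 to 6.53 for Mapk8, next to the lowest of the others at 6.58.

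Mapk14 (p38 alpha) stayed within a narrow band. It read 7.96, 8.17 and 7.81 in WT, 7.94, 8.02 and 7.93 in Jnk1 KO, and 7.85, 8.03 and 7.95 in Jnk2 KO. NEMO/Jnk1 DKO read 7.73, 7.79 and 7.96 and NEMO/Jnk2 DKO 7.79, 7.93 and 8.02. All 5 groups overlapped, and no neighbours in the order of their means differed beyond their spread. The widest of its 11 differences was NEMO/Jnk1 DKO less WT at -0.16 (-0.38 to 0.07, limma adjusted p = 0.485), which leaves no room for a doubling or halving.

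Map2k4 (MKK4) was highest in Jnk2 KO. It read 7.57, 7.63 and 7.31 there, 7.01, 7.25 and 7.20 in WT, and 7.18, 7.20 and 7.16 in Jnk1 KO. NEMO/Jnk1 DKO read 6.80, 7.21 and 7.27, and NEMO/Jnk2 DKO 7.22, 7.27 and 7.30. All 3 Jnk2 KO arrays lay above the 12 others, whose highest was 7.30, but the lowest of them, a doubted array, was ahead by a margin smaller than the spread within groups. Jnk2 KO less WT was 0.35 (SE 0.12, 0.08 to 0.61, limma adjusted p = 0.26), and 0.44 without the 2 doubted arrays (SE 0.13, adjusted p = 0.132), so the difference did not pass. Below Jnk2 KO the order was NEMO/Jnk2 DKO, Jnk1 KO, WT and NEMO/Jnk1 DKO, of which NEMO/Jnk2 DKO did not overlap Jnk1 KO (7.16 to 7.20) while the others overlapped. All Jnk1-null less all Jnk2-null was -0.25 (SE 0.09, limma adjusted p = 0.343).

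Map3k5 (ASK1) showed the widest range among the members that were not deleted, and its highest values were those of Jnk2 KO. The 3 Jnk2 KO arrays read 8.00, 8.98 and 7.58. The 12 other arrays lay between 7.02 and 7.49, namely 7.19, 7.39 and 7.32 (WT), 7.20, 7.49 and 7.39 (Jnk1 KO), 7.02, 7.33 and 7.40 (NEMO/Jnk1 DKO), and 7.29, 7.43 and 7.19 (NEMO/Jnk2 DKO). The 3 Jnk2 KO arrays were thus above all others, with replicate 2 far ahead and replicate 3, a doubted array, just above the rest. The other 4 groups overlapped.

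As labelled, the difference of Map3k5 did not pass any test. Jnk2 KO less WT was 0.89 (SE 0.25, 0.35 to 1.43, limma adjusted p = 0.153). Without the 2 doubted arrays it was 1.19 (SE 0.21, 0.73 to 1.65, limma adjusted p = 0.0156), with 2 arrays left in Jnk2 KO. It passed in 3 of 28 other settings, all of which leave out Jnk2 KO replicate 3, and its adjusted p ranged from 0.0156 to 0.355. Without Jnk2 KO replicate 2 the difference was 0.49 (SE 0.15, adjusted p = 0.252), so its size rests on that array. Jnk1 KO less Jnk2 KO was -0.83 (SE 0.25, limma adjusted p = 0.371), and -1.05 without the 2 doubted arrays (adjusted p = 0.0688).

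The level of Map3k5 in NEMO/Jnk2 DKO was that of WT, with a difference of 0.00 (-0.54 to 0.54). NEMO/Jnk2 DKO less Jnk2 KO was therefore -0.89 (SE 0.25, limma adjusted p = 0.512), and -1.19 without the 2 doubted arrays (SE 0.21, adjusted p = 0.00543, range over settings 0.00543 to 0.971). Without Jnk2 KO replicate 2 it was -0.49. On the Jnk1-null background the same comparison gave -0.11 (-0.64 to 0.43). The difference of the 2 NEMO effects was 0.78 (SE 0.35, limma adjusted p = 1) and 1.00 without the 2 doubted arrays (SE 0.30, adjusted p = 0.454), so the effects were not shown to differ between the backgrounds. These comparisons share the Jnk2 KO arrays and are not independent of one another. In Jnk2 KO less WT without the 2 doubted arrays, limma called 0 of 43 marker genes of liver cell types and proliferation, with 7 at an unadjusted p under 0.05. Over all genes 1.24% were called and 2570 of 19938 were at an unadjusted p under 0.05. So 0 of 43 is near that share, and with 2 Jnk2 KO arrays it does not show that the cell types were unchanged. The mean of the macrophage markers was 6.63 and 6.28 in those Jnk2 KO arrays, with WT between 5.72 and 6.29, and its part in the Map3k5 difference was not tested.

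Map3k7 (TAK1) was the steadiest member. It read 7.71, 7.65 and 7.79 in WT, 7.71, 7.80 and 7.54 in Jnk1 KO, and 7.88, 7.65 and 7.62 in Jnk2 KO. NEMO/Jnk1 DKO read 7.58, 7.71 and 7.84, and NEMO/Jnk2 DKO 7.63, 7.71 and 7.73. All 5 groups overlapped. As labelled, its 11 differences lay between -0.03 and 0.05, and their 95% confidence intervals stayed between -0.26 and 0.35, which leaves no room for a doubling or halving of TAK1 message with the loss of Jnk1, Jnk2 or hepatocyte NEMO. The intervals lay between -0.37 and 0.46 without the 2 doubted arrays.

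**Figure D2:**
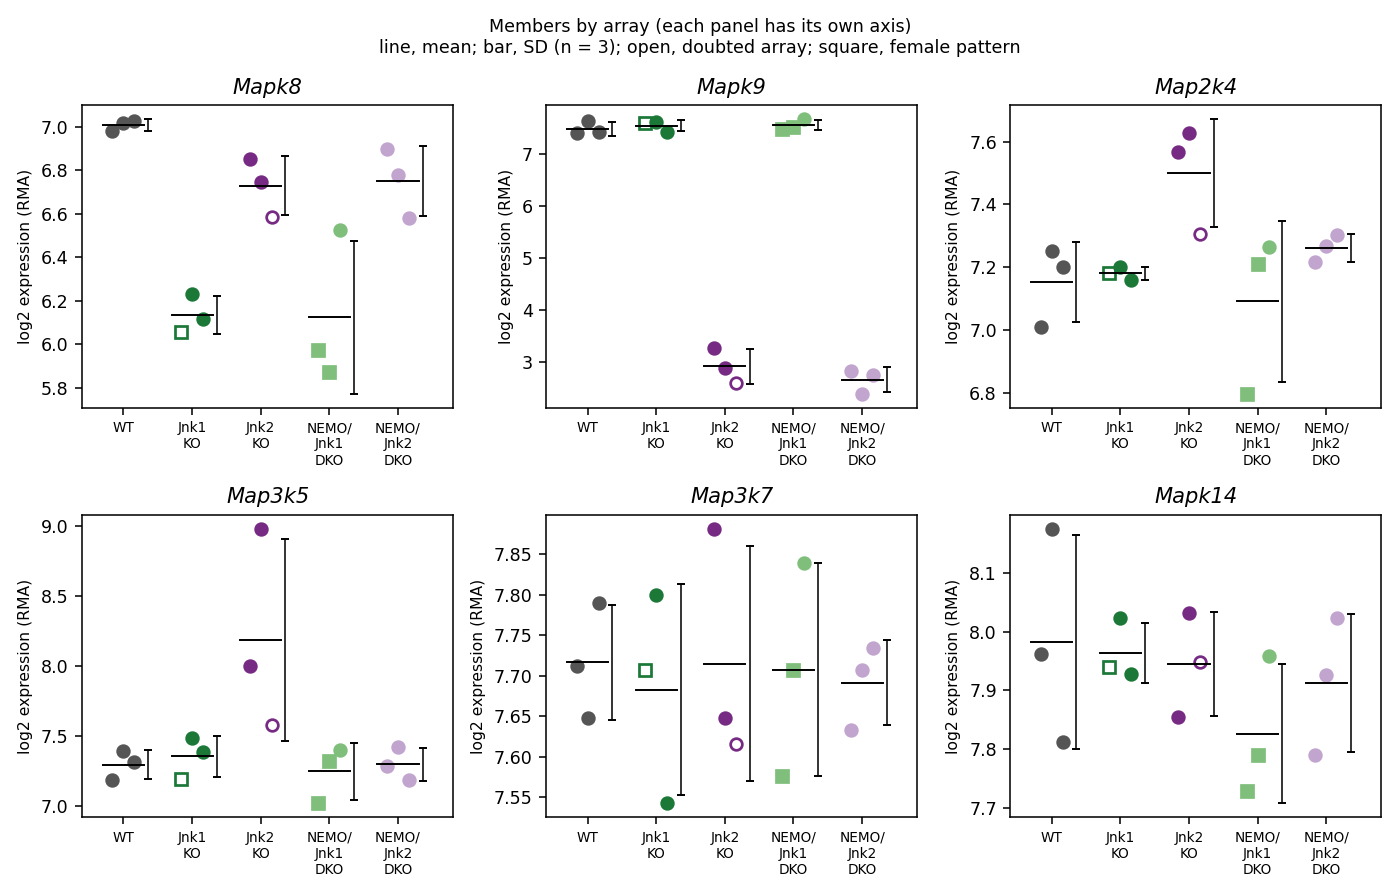
Log2 expression of the 6 measured members in each group, 1 panel per gene with its own axis. Points are arrays, the line is the group mean and the bar its SD over 3 arrays. Mapk9 drops to 2.39 to 3.28 in both Jnk2-null groups, Mapk8 to 5.87 to 6.53 in both Jnk1-null groups, and Map3k5 reaches 8.98 in Jnk2 KO, while Map3k7 and Mapk14 stay level.

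Counted over the members, the calls were few, and most were of the deleted genes themselves. As labelled, limma called 0 of 6 members in Jnk1 KO less WT (1 at an unadjusted p under 0.05), where 0.01% of all genes were called. It called 1 of 6 in Jnk2 KO less WT, against 0.411% of all genes, 1 in NEMO/Jnk1 DKO less WT, against 0.0652%, and 1 in NEMO/Jnk2 DKO less WT, against 2.63%. These are Mapk9 in the Jnk2-null groups and Mapk8 in NEMO/Jnk1 DKO. Between the Jnk genotypes, Mapk9 was the 1 member called in Jnk1 KO less Jnk2 KO, at least 14.5-fold higher in Jnk1 KO, against 0.13% of all genes. It was also the 1 called in NEMO/Jnk1 DKO less NEMO/Jnk2 DKO, at least 14.6-fold higher in NEMO/Jnk1 DKO, against 0.105%. In all Jnk1-null less all Jnk2-null the 2 members called were Mapk8 and Mapk9, against 0.547% of all genes.

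NEMO loss called no member as labelled, and few genes at all. Limma called 0 of 6 members in NEMO/Jnk1 DKO less Jnk1 KO (0 at an unadjusted p under 0.05), where 0% of all genes passed and 908 were at an unadjusted p under 0.05. It called 0 of 6 in NEMO/Jnk2 DKO less Jnk2 KO (1 unadjusted), against 0.00502% of all genes, and 0 of 6 for NEMO loss averaged over both backgrounds (1 unadjusted), also against 0.00502%. For the difference of the NEMO effects it called 0 of 6 (1 unadjusted), against 0%, with 548 genes at an unadjusted p under 0.05. Each of the NEMO comparisons uses 1 or both of the groups that hold a doubted array.

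Without the 2 doubted arrays many more genes passed, but of the members Map3k5 was the 1 gained. Limma called 0 of 6 members in Jnk1 KO less WT (1 unadjusted), against 0.015% of all genes, and 2 of 6 in Jnk2 KO less WT, Mapk9 and Map3k5, against 1.24%. It called 1 in NEMO/Jnk1 DKO less WT, against 7.91%, and 1 in NEMO/Jnk2 DKO less WT, against 10.6%. It called 1 in Jnk1 KO less Jnk2 KO against 0.597%, 1 in NEMO/Jnk1 DKO less NEMO/Jnk2 DKO against 0.321%, and 2 in all Jnk1-null less all Jnk2-null against 1.12%. For NEMO loss it called 0 of 6 on the Jnk1-null background (0 unadjusted), against 5.18%, and 1 of 6 on the Jnk2-null background, against 5.85%. Averaged over both backgrounds it called 1 of 6, Map3k5 at -0.69 (SE 0.15, limma adjusted p = 0.00904, range over settings 0.00904 to 0.779), against 11.7% of all genes. With so few members, 1 call is near that share. The difference of the NEMO effects again called 0 of 6 (1 unadjusted), against 0.01%, with 1313 genes at an unadjusted p under 0.05.

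**Figure D3:**
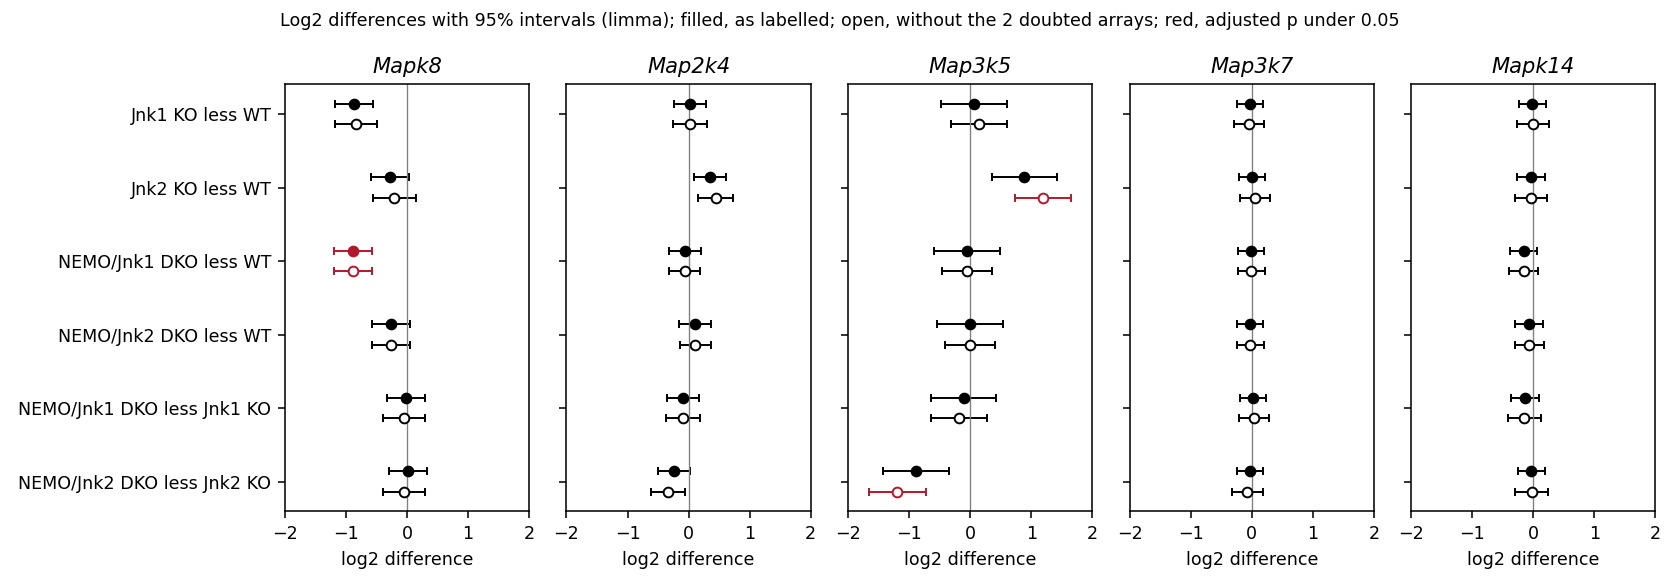
Log2 difference of the 5 measured members other than Mapk9 in 6 of the comparisons, with its 95% confidence interval, as labelled (filled) and without the 2 doubted arrays (open), red where limma's adjusted p is under 0.05. Map3k5 in the 2 comparisons that hold Jnk2 KO lies farthest from 0, at 1.19 and -1.19 without the 2 doubted arrays, while Mapk8 reaches -0.88.

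For each member, the 3 genes whose levels followed it most closely over the 15 arrays were read out by Pearson correlation among 17058 genes, as a description, since these arrays share genotypes and the genes were picked for likeness. For Mapk8 these were Tpmt (r = 0.911), a thiopurine methyltransferase, Rps3a1 (r = 0.872), a ribosomal protein gene, and Ciao1 (r = 0.868), a factor of iron-sulfur protein assembly. Rps3a1 read 7.76 to 8.22 on the 6 Jnk1-null arrays and 9.21 to 9.82 on the 9 others, though processed copies of ribosomal protein genes can share its probes and its level is uncertain for that reason. Tpmt read 9.10 to 9.61 on the Jnk1-null arrays and 9.73 to 10.43 on the others. For Mapk9 the closest were Psmd6 (r = 0.949), a proteasome subunit, Tm7sf3 (r = 0.933), a membrane protein, and Gsap (r = 0.931), the gamma-secretase activating protein. Here the Jnk2-null arrays form a cluster apart from the others, so r describes that separation. Gsap read 6.17 to 6.74 on the 6 Jnk2-null arrays and 7.25 to 7.61 on the 9 others.

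Map3k5 was followed most closely by Myo18a (r = 0.939), an unconventional myosin, Nrbf2 (r = 0.924), an autophagy factor, and Slc25a32 (r = 0.920), the mitochondrial folate carrier. Slc25a32 read 8.25, 8.53 and 7.11 in Jnk2 KO and 6.75 to 7.27 on the 12 other arrays, so that here the doubted array was not above the rest. Myo18a read 7.26, 7.65 and 6.84 in Jnk2 KO, and at most 6.91 elsewhere. By rank, Spearman rho with Map3k5 was 0.64 for Myo18a, 0.832 for Nrbf2 and 0.636 for Slc25a32. Map2k4 was followed by Ccdc6 (r = 0.919), Ints13 (r = 0.888), an Integrator subunit, and Taf2 (r = 0.877), a TFIID subunit. Taf2 read 7.52, 7.47 and 6.85 in Jnk2 KO and at most 6.96 elsewhere, the same shape as the genes like Map3k5. Map3k7 was followed by Tbc1d12 (r = 0.893), Cep63 (r = 0.83) and Smarcc1 (r = 0.823), a chromatin remodelling subunit. Mapk14 was followed by Spata25 (r = 0.858), Cep95 (r = 0.853) and Impa1 (r = 0.827), an inositol monophosphatase. Each of the 6 members, the level ones included, thus had 3 genes at an r of at least 0.823. The lowest Spearman rho among these pairs was 0.521, for Mapk14 and Impa1.

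**Figure D4:**
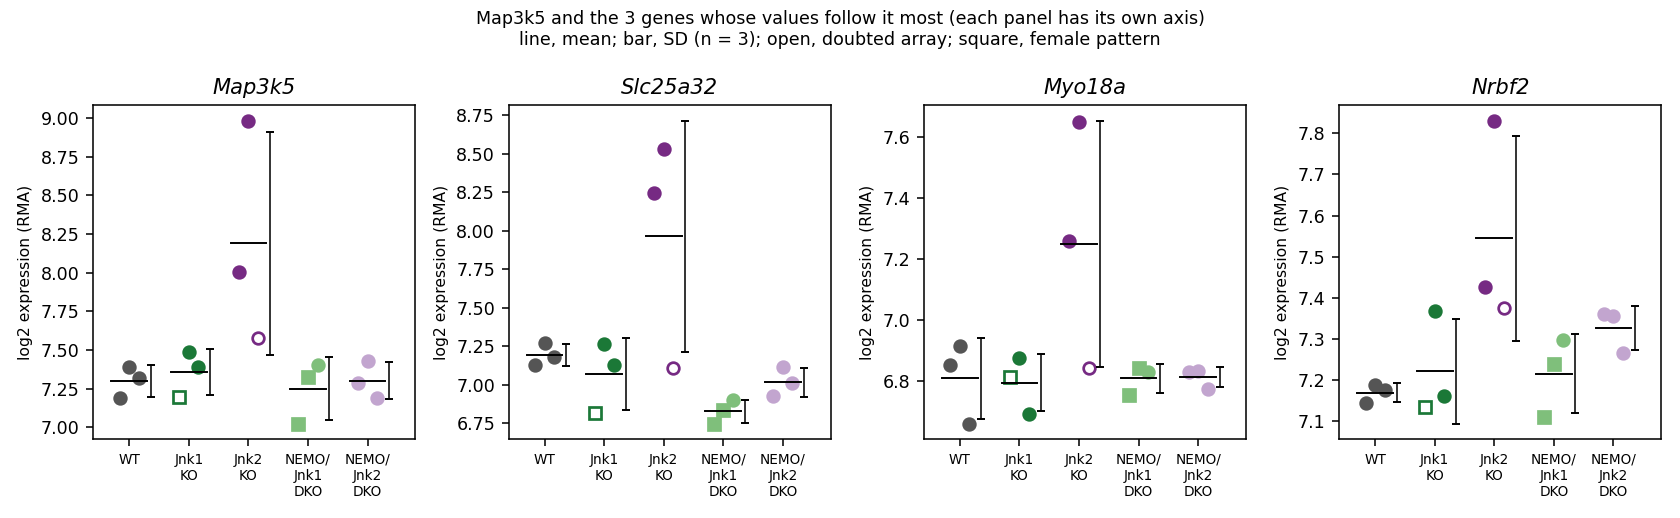
Log2 levels of Map3k5 and of Myo18a, Nrbf2 and Slc25a32, the genes most like it, on the 15 arrays by group. Jnk2 KO replicates 1 and 2 stand above the other arrays in all 4 genes, and the doubted Jnk2 KO replicate 3 lies close to or within them.

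Around the members, 7 lists of 136 genes in all, of which 121 were measured, cover the rest of the MAP kinase pathways. As labelled, limma called 0 of 121 in each of the 11 comparisons, with 1 to 23 of them at an unadjusted p under 0.05. Over all genes 0% to 2.63% were called, with 548 to 3766 of 19938 at an unadjusted p under 0.05. The lowest adjusted p values in Jnk2 KO less WT belonged to Dusp1, a phosphatase that inactivates p38 and JNK, at 1.53 (SE 0.31, limma adjusted p = 0.055), and Spred1, an inhibitor of the Ras to ERK step, at 0.75 (SE 0.17, adjusted p = 0.0757). Dusp1 read 9.64, 10.21 and 9.51 in Jnk2 KO, above every other array, the highest of which read 9.18. The median log2 difference over the 121 genes in this comparison was 0.002, beside -0.036 over all genes.

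With the 2 doubted arrays left out, 3 of the 121 passed in Jnk2 KO less WT (2.48%, against 1.24% of all genes). Dusp1 rose by 1.66 (SE 0.35, limma adjusted p = 0.0359) and Spred1 by 0.65 (SE 0.14, adjusted p = 0.0429). Dusp10, a phosphatase of JNK and p38, fell by 0.67 (adjusted p = 0.0146), with 4.58 and 4.70 in those Jnk2 KO arrays against 5.34, 5.29 and 5.29 in WT. The doubted Jnk2 KO array read 5.70 for Dusp10. In Jnk1 KO less WT limma again called 0 of 121 (4 unadjusted), and 0 also in Jnk1 KO less Jnk2 KO (25 unadjusted) and in NEMO/Jnk1 DKO less NEMO/Jnk2 DKO (5 unadjusted). In the same order, 0.015%, 0.597% and 0.321% of all genes were called. At an unadjusted p under 0.05 were 1011, 2152 and 1496 of 19938 genes.

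In the fit without the 2 doubted arrays, more list genes passed with NEMO loss than with the loss of Jnk1 or Jnk2 alone. As labelled, 0 of 121 passed with NEMO loss. The arrays left out were picked for likeness to the double knockouts, so the counts and p values of this fit depend in part on that choice. Averaged over both Jnk-null backgrounds, 9 of 121 were higher and 10 lower (15.7%, against 11.7% of all genes), with a median of -0.01 over the lists, as over all genes. Among 21 upstream kinases of JNK, Map4k4, which acts above the MAP3Ks, rose by 0.97 (SE 0.10, limma adjusted p = 4.05e-05), while Map4k5 fell by 0.36 and Map3k2 fell by 0.30. Map4k4 read 4.99 to 5.47 on the 7 NEMO-intact arrays not doubted, 6.03 to 6.52 in the double knockouts, and 6.39 and 6.14 in the doubted arrays. Of 20 JNK substrates 2 rose and 5 fell. Those that rose were Stmn1, a microtubule regulator also raised in dividing cells, by 1.87 (SE 0.22), and Jun, the transcription factor JNK is named after, by 1.24 (SE 0.24). Those that fell were Foxo1 (-0.56), Sirt1 (-0.36), Rxra (-0.35), Itch (-0.31) and Ppara (-0.30), of which Rxra and Ppara are nuclear receptors of hepatocyte lipid metabolism.

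Jun read 5.69 to 7.51 over WT and the 2 Jnk1 KO arrays not doubted, 7.30 and 7.49 in the 2 such Jnk2 KO arrays, and 7.72 to 8.28 in the double knockouts. On the Jnk1-null background it rose by 2.06 with NEMO loss (limma adjusted p = 0.00301), and it was not among the genes called on the Jnk2-null background. In that fit the female pattern occurred in NEMO/Jnk1 DKO and not in Jnk1 KO. The difference between the backgrounds did not pass for any list gene (0 of 121, 17 unadjusted), against 0.01% of all genes (1313 of 19938 unadjusted). Of 24 scaffolds and adaptors 2 rose, the actin crosslinker Flna by 1.06 and the MAP3K4 activator Gadd45a by 0.68. Of 15 MAP kinase phosphatases 2 rose, Dusp6, which acts on ERK, by 0.87 and Dusp10 by 0.67. Among 22 genes of the ERK module, Rps6ka3 (0.51) and Nras (0.27) were higher and Sos1 (-0.50) and Braf (-0.36) lower. The mean of Rps6ka3 went from 5.67 in Jnk1 KO to 6.65 in NEMO/Jnk1 DKO, but from 6.30 in Jnk2 KO only to 6.36 in NEMO/Jnk2 DKO. Of 13 genes of the p38 module, Map2k3, a p38 activator, fell by 0.28, and 0 of 6 atypical MAP kinase genes passed in limma. For Rps6ka3, Nras, Sos1, Dusp6, Map2k3, Map4k5, Map3k2 and Rxra the double knockouts overlapped the Jnk1 KO and Jnk2 KO arrays not doubted.

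In the same fit, on the Jnk1-null background alone, 7 of 121 rose and 2 fell with NEMO loss (7.44%, against 5.18% of all genes). Of the 3 NEMO/Jnk1 DKO arrays 2 had the female pattern, which no WT array and no Jnk1 KO array left in had. Sex pattern and genotype thus cannot be fully told apart where NEMO/Jnk1 DKO is compared with either group. On the Jnk2-null background 5 rose and 5 fell (8.26%, against 5.85%). Stmn1, Map4k4, Flna and Dusp10 rose in both. Dusp1 fell by 1.70 on the Jnk2-null background (limma adjusted p = 0.011), from its high level in Jnk2 KO. Against WT, 6 rose and 4 fell in NEMO/Jnk1 DKO (8.26%, against 7.91% of all genes), and 7 rose and 2 fell in NEMO/Jnk2 DKO (7.44%, against 10.6%). These comparisons share WT, Jnk1 KO or Jnk2 KO arrays with one another.

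Markers of some other cells moved with these list genes. In the averaged NEMO comparison without the 2 doubted arrays, 5 of 8 macrophage markers, 5 of 5 proliferation genes and 4 of 6 stellate and myofibroblast markers rose, with medians of 0.69, 1.68 and 1.27. Of 6 hepatocyte markers 2 fell. Of 7 T, NK and B cell markers 1 rose, and limma called 0 of 6 endothelial and 0 of 5 cholangiocyte and progenitor markers. In this fit 11.7% of all genes were called. As labelled, limma called 0 of 43 markers in the same comparison (15 unadjusted), against 0.00502% of all genes. The mean of the macrophage markers lay between 5.72 and 6.63 on the 7 NEMO-intact arrays not doubted, between 6.87 and 7.53 in the double knockouts, and at 7.24 and 7.06 in the doubted arrays. The mean of the proliferation genes lay between 4.16 and 4.84, between 5.42 and 6.41, and at 6.74 and 5.55 in the same order. Their part in the changes of Map4k4, Flna, Stmn1, Jun and the other list genes was not tested.

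**Figure D5:**
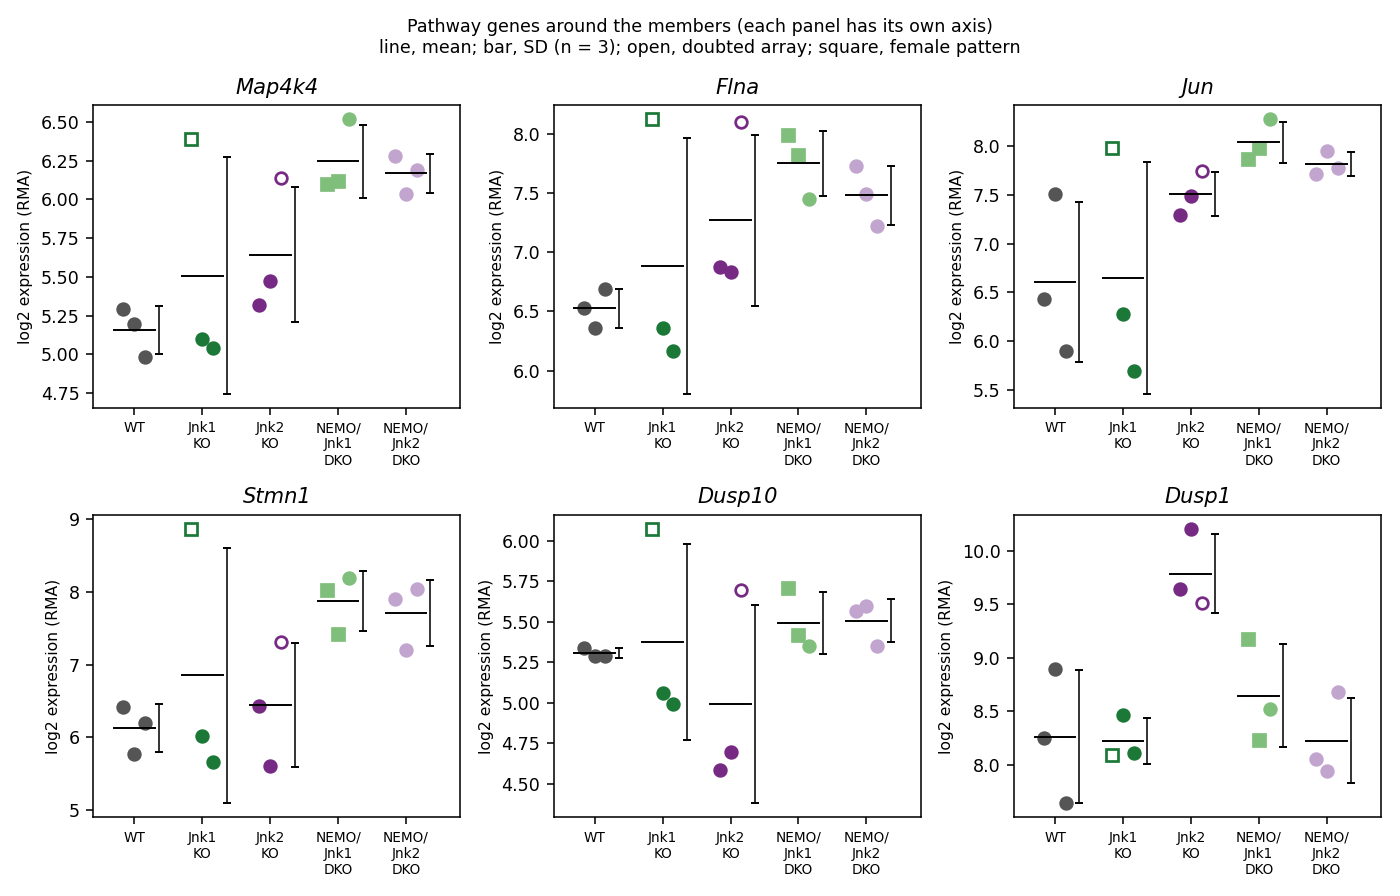
Log2 expression of 6 pathway genes around the members by group, 1 panel per gene with its own axis, with points for arrays and the group mean ± SD over 3 arrays. Map4k4, Flna, Jun and Stmn1 are high in the 6 double knockouts and in the open symbols of the 2 doubted arrays, Dusp10 is lowest in Jnk2 KO replicates 1 and 2 (4.58 and 4.70), and Dusp1 is highest in Jnk2 KO (9.51 to 10.21).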

How the data were processed

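Liver RNA of 15 mice was hybridized to 15 Affymetrix arrays. The values are those the authors deposited, on a log2 scale after RMA normalization according to the submitters' processing notes. No RMA version is given in the sources used here, and base 2 was taken from the size of the values. Of 35556 probe sets, 21789 had 1 gene symbol in the platform's gene table, 1621 had several and 12146 were not listed. For the 999 genes with several probe sets the one with the highest mean stood for the gene, leaving 19938. No further normalization was applied. Array medians lay between 4.26 and 4.38, and no 2 arrays were identical (Pearson r between 0.976 and 0.991). The number of arrays limits the precision.

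The 11 comparisons were contrasts of group means in limma 3.58.1 (lmFit and eBayes, R 4.3.3) on all 15 arrays, with 10 residual and 3.75 prior degrees of freedom (8 and 5.05 without the 2 doubted arrays). The code was tested on simulated data. Residual r was between -0.395 and 0.304 for same-numbered arrays of different groups, and between -0.463 and 0.569 for different numbers. This gave no sign that replicate numbers pair the mice. With 3 arrays per group and the 2 doubted arrays left in, it cannot exclude such a pairing. Named are the members, from each list up to 4 genes past the threshold with the largest change or else the 2 with the lowest p, all genes called where a count was small, and the 3 genes most like each member, leaving out predicted models, small RNA genes and olfactory receptors. The kappaB motif allows several bases at some positions, and it was narrowed after a looser form had matched a large share of all promoters and most of the members'. The members and lists were chosen with earlier results of these data known, as were the doubted arrays and the markers. Other settings were a fit to the compared arrays alone, a robust prior with an intensity trend, array weights, repeated quantile normalization, median centring, a filter on dim probe sets (13873 genes kept), all probe sets, a minimal fold change of 1.5, the replicate block, a sex term, and arrays left out. Figures come from matplotlib 3.10.9 in Python 3.11.15. Proteins were not analysed here.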

Additional observations from a re-analysis of the deposited data

How the results depend on the processing

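Each comparison was repeated under 28 other settings, and none of the differences of members followed reversed its sign. The calls of Mapk9 in 5 comparisons passed in all 28. The number of members called moved as follows. With array weights, NEMO/Jnk1 DKO less NEMO/Jnk2 DKO called 2. With the replicate block, NEMO/Jnk1 DKO less WT called 0, with Mapk8 at -0.88 (limma adjusted p = 0.0928), and the block changed no other count of members. Without the 2 doubted arrays, Jnk2 KO less WT called 2, NEMO/Jnk2 DKO less Jnk2 KO 1 and averaged NEMO loss 1, each gaining Map3k5. Without the 3 arrays with the female pattern, and likewise with the sex term, NEMO/Jnk1 DKO less WT called 0 and all Jnk1-null less all Jnk2-null 1. Without the 2 doubted arrays and with the sex term, Jnk1 KO less WT called 1, Jnk2 KO less WT 2, NEMO/Jnk1 DKO less WT 0, Jnk1 KO less Jnk2 KO 2, all Jnk1-null less all Jnk2-null 1 and NEMO/Jnk2 DKO less Jnk2 KO 1. Leaving out 1 array at a time, the count ranged from 0 to 1 in NEMO/Jnk1 DKO less WT, Jnk1 KO less WT and NEMO/Jnk2 DKO less Jnk2 KO, and from 1 to 2 in Jnk2 KO less WT, Jnk1 KO less Jnk2 KO and NEMO/Jnk1 DKO less NEMO/Jnk2 DKO. The causes were not tested. Counts of pathway genes ranged from 0 to 19 over the settings. In NEMO/Jnk1 DKO and NEMO/Jnk2 DKO less WT they were 6 and 10 with array weights and 6 and 8 in the fit to the compared arrays alone. The share of all genes called with array weights or in that fit was not read out, so these counts are not a result about the lists. The sex term rests on arrays of Jnk1-null mice alone, and single groups hold 3 arrays.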

Other observations

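Genes beside the deleted ones were read out after the values of the members were seen. Of the 10 measured protein-coding neighbours of each (5 on either side), limma called 0 in any of the comparisons of Jnk-null groups as labelled (lowest adjusted p = 0.0758). In those comparisons 0.01% to 2.63% of all genes were called. Without the 2 doubted arrays limma called Wdfy4, near Mapk8, at 0.82 in NEMO/Jnk1 DKO less WT (adjusted p = 0.0166) and Mrnip, near Mapk9, at -0.70 in NEMO/Jnk2 DKO less WT (adjusted p = 0.0147). That was 1 of 10 neighbours in each, near the share of all genes called there, 7.91% and 10.6%. Wdfy4 was at 0.03 in Jnk1 KO less WT (adjusted p = 1) and Mrnip at -0.50 in Jnk2 KO less WT (adjusted p = 0.249).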
